A study of Homo sapiens with 15 samples.

Results

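Matrix metalloproteinases (MMPs), ADAM proteins (a disintegrin and metalloproteinase), their relatives with thrombospondin repeats (ADAMTS) and the 4 tissue inhibitors of metalloproteinases (TIMPs) were followed in 2 human cell lines with labelled knockouts of SNRPD2 or PUS7. Members were all protein-coding genes whose symbol starts with MMP, ADAM or ADAMTS and a number or letter of the family, or is TIMP1 to TIMP4, and which stand in both deposited count tables. The rule found 59 genes among the 62703 of the HEK293T table and the 35595 of the HuCCT1 table. The HEK293T table held 72 matching symbols, and the other 13 were ADAM2, ADAM7, ADAM18, ADAMTS10, ADAMTS13, ADAMTS19, MMP8, MMP11, MMP12, MMP17, MMP26, MMP27 and MMP28. Of the 59 members, MMP24OS is caught by its symbol alone: it lies on the opposite strand of MMP24 and is no metalloprotease.

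The study concerns pseudouridine in RNA and its link to the protein SmD2. SNRPD2 encodes SmD2, a core protein of spliceosomal snRNPs, and PUS7 is a pseudouridine synthase. Per the labels there were 3 HEK293T libraries of genotype SNRPD2KO, 3 of genotype PUS7KO and 3 of genotype Ctrl, and 3 HuCCT1 libraries of genotype SNRPD2KO and 3 of genotype Ctrl. Both knockouts were made with CRISPR-Cas9, and the labels name no guide and do not say whether a knockout is a clone or a pool. HEK293T is an embryonic kidney line that carries SV40 large T antigen, and HuCCT1 is a line from an intrahepatic bile duct carcinoma. Since nothing says that the 3 libraries of a group came from separate cultures, the p-values measure the spread between these libraries, which may be technical.

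Total counts ran from 10080682 to 11270267 in HEK293T SNRPD2KO libraries, from 10022912 to 11181703 in PUS7KO and from 7944276 to 9202622 in Ctrl, and from 15580342 to 16772238 in HuCCT1 SNRPD2KO and from 13776166 to 16795618 in Ctrl. HEK293T Ctrl libraries had counts on more genes in spite of their lower totals, with 24947 to 26998 genes in SNRPD2KO, 26626 to 27460 in PUS7KO and 29551 to 30073 in Ctrl. SNRPD2 RNA went against its label: it was higher in the libraries labelled SNRPD2KO than in Ctrl in both lines. Its log2 fold change was 0.62 in HEK293T libraries (adjusted p = 4.9e-05), while that of HuCCT1 was 0.90 (adjusted p = 1.8e-06), so every direction given for these libraries is that of the label and not of a measured loss of SNRPD2 RNA. SNRPD2 RNA was also higher in PUS7KO than in Ctrl (log2 fold change 0.52, adjusted p = 0.00034). PUS7 RNA was lower in PUS7KO than in Ctrl HEK293T libraries, by a log2 fold change of -0.72 (adjusted p = 6.7e-05). All 10 biliary epithelial markers averaged 1 CPM or more in both HuCCT1 groups, and 9 of 10 HEK293T markers did so in all HEK293T groups. Neither list was exclusive to its line. Of the biliary markers 5 also reached 1 CPM in HEK293T SNRPD2KO, 6 in PUS7KO and 5 in Ctrl. Of the HEK293T markers 3 did so in each HuCCT1 group.

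MMPs, ADAMs and ADAMTS proteins are zinc proteases of the metzincin clan that act outside the cell or at its surface. Most MMPs are secreted as inactive precursors and digest collagens and other matrix proteins, while the membrane-anchored ones act at the cell edge. ADAMs cut the outer parts of membrane proteins loose, as in Notch signalling and the release of growth factors of the EGF family, and several ADAMs have lost their catalytic site and act as adhesion or receptor proteins. ADAMTS proteases process procollagens, proteoglycans and fibrillin-rich matrix, and TIMPs block these proteases with overlapping ranges. In bile duct carcinoma, MMP and TIMP expression is a long-studied feature of invasion.

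The 2 lines expressed different members. The unit is the normalized CPM, the count scaled by TMM-normalized library size. The levels that follow are CPM per kilobase of exon, so that genes can be compared, as mean ± SD (n = 3). In HuCCT1 the order in SNRPD2KO libraries was TIMP2 (98.6 ± 7.83), TIMP1 (81.2 ± 6.57), ADAM9 (65.7 ± 1.57), MMP14 (19.3 ± 1.61) and ADAM15 (17.5 ± 0.834). HuCCT1 Ctrl libraries were led by TIMP1 (148 ± 5.16), TIMP2 (81.3 ± 0.808), MMP14 (49.5 ± 3.08), ADAM9 (25.0 ± 1.59) and MMP1 (21.7 ± 2.48), and ADAM9 and MMP1 overlapped in their spread there, as MMP14 and ADAM15 did in SNRPD2KO. In HEK293T, ADAMTS1 and TIMP1 stood first and second in all 3 groups. ADAMTS1, which cleaves aggrecan and versican, was at 57.2 ± 4.72 in SNRPD2KO, 64.5 ± 8.57 in PUS7KO and 35.6 ± 8.29 in Ctrl libraries, and TIMP1 at 21.1 ± 1.38, 19.8 ± 1.56 and 32.3 ± 4.79 in the same groups. ADAMTS1 and TIMP1 did not differ beyond their spread in HEK293T Ctrl. TIMP3 (4.54 ± 0.518), ADAM9 (4.16 ± 0.186), ADAM15 (3.93 ± 0.364) and ADAM17 (3.90 ± 0.305) followed in HEK293T Ctrl and overlapped in their spread. ADAMTS1 and TIMP3 had at most 0.445 and 0.0635 CPM in any HuCCT1 library, while MMP14 had at most 1.07 CPM in any HEK293T library. The number of members averaging at least 1 CPM was 30 in HEK293T SNRPD2KO, 30 in PUS7KO and 35 in Ctrl, and 29 in each HuCCT1 group.

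In HuCCT1 the libraries labelled SNRPD2KO had less RNA of the collagenase MMP1, of the membrane-type protease MMP14, of matrilysin MMP7 and of the inhibitor TIMP1 than Ctrl. RNA of the membrane proteases ADAM9 and ADAM10, of the inhibitor TIMP2 and of ADAM11 and ADAM22, which lack a catalytic site, was higher than in Ctrl. Of 59 members 32 passed the low-count filter, and 25 of these passed the test at an adjusted p under 0.05, 14 higher and 11 lower. These are 78.1% of the members tested, beside 57.2% of all 15007 genes tested, of which 28.8% were higher and 28.4% lower. The median log2 fold change was 0.09 over the members tested and 0.00 over all genes. As in any bulk sample, fewer cells of a type and less RNA per cell cannot be told apart. Of the 59 members, 34 overlap a gene with counts on the opposite strand; the kit keeps strand per the labels, but the setting used for counting is not given in the sources used here, so reads of such pairs may be mixed.

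**Figure D1:**
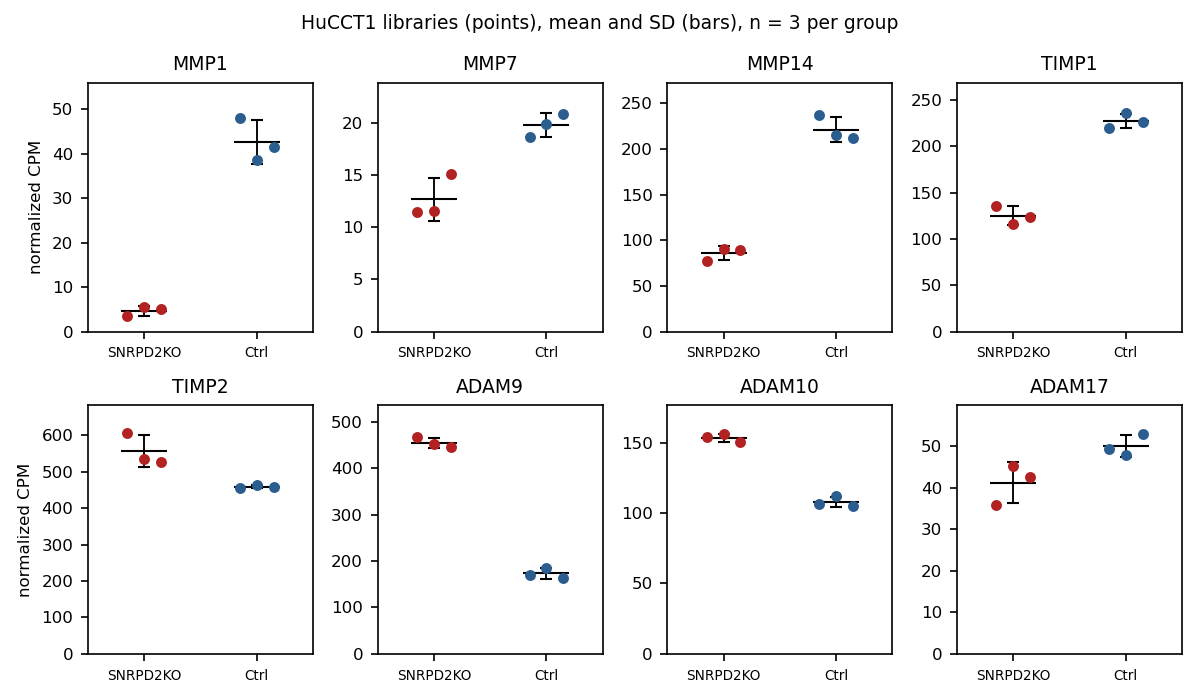
Normalized CPM (vertical axis, from 0) of 8 members in the 3 SNRPD2KO and 3 Ctrl libraries of HuCCT1; points are libraries, the long bar is the mean and the whiskers the SD. MMP1, MMP7, MMP14, TIMP1 and ADAM17 were lower in every SNRPD2KO library than in any Ctrl library, and TIMP2, ADAM9 and ADAM10 higher.

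Among the secreted MMPs, 4 of 10 could be tested in HuCCT1 and 3 were lower. MMP1, the interstitial collagenase that cuts fibrillar collagen, had 3.50, 5.58 and 5.09 CPM in SNRPD2KO libraries, against 48.1, 38.6 and 41.4 CPM in Ctrl libraries. The groups lay far apart, a 9.05-fold lower level in SNRPD2KO (log2 fold change -3.18 ± 0.15 SE, adjusted p = 4.4e-08). MMP7, an epithelial matrilysin, had 11.5, 11.5 and 15.1 CPM in SNRPD2KO against 18.6, 19.9 and 20.9 CPM in Ctrl (log2 fold change -0.64 ± 0.12, adjusted p = 0.00082). MMP10, stromelysin-2, was near the limit of counting with 4, 0 and 2 counts in SNRPD2KO against 12, 12 and 11 counts in Ctrl, and it passed the test as lower (adjusted p = 0.0044). MMP10 passed the low-count filter through the Ctrl libraries alone, so a call as lower was favoured in advance. MMP19 had 1.38, 1.01 and 0.699 CPM in SNRPD2KO against 0.826, 1.10 and 1.12 CPM in Ctrl, groups that overlapped (adjusted p = 0.95). Summed over the 10 secreted MMPs the level was 17.5 to 21.9 CPM in SNRPD2KO libraries and 60.9 to 69.8 CPM in Ctrl libraries, most of it MMP1 in Ctrl. MMP2 and MMP9, the gelatinases, were barely present, with 6 to 8 counts of MMP2 in SNRPD2KO and 5 to 16 in Ctrl, and at most 1 count of MMP9 in SNRPD2KO and 3 in Ctrl.

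MMP1, MMP7 and MMP10 belong to a cluster of MMP genes on chromosome 11 that also holds MMP3, MMP13 and MMP20, which had too few HuCCT1 counts to be tested. In the coordinates of the deposited tables MMP7 lies at chr11:102520508-102530750, MMP10 at chr11:102770502-102780628 and MMP1 at chr11:102789401-102798160, all on the minus strand. MMP13, collagenase-3, ran the other way in its few counts, with 8, 5 and 7 in SNRPD2KO against 3, 1 and 0 in Ctrl. MMP3 had at most 2 counts and MMP20 at most 1 in any HuCCT1 library. Genes of this cluster are textbook targets of AP-1, and the 7 letters TGANTCA, an AP-1 motif that reads the same on both strands, were looked for in RefSeq promoters (GRCh38.p14, 250 bases before to 50 after the start). Of the 59 members 38 had a promoter matched by symbol and chromosome, and 4 of these held the letters (10.5%), beside 7.71% of all 35116 promoters. These 4 were MMP7, MMP10, MMP20 and ADAMTS12, and the MMP14 and TIMP1 promoters did not hold them. MMP1, MMP3 and MMP13 were not among the promoters searched. The last 150 bases before the start are shown for MMP7 and MMP10, with the motif in capitals starting at position -67 from the start in both, and for MMP14 and TIMP1 as members that were lower in the same libraries. A match is a description of letters and not a measured site. Only these exact letters were looked for, so a promoter without them, such as that of TIMP1, may hold another form of the motif.
MMP10 promoter, chr11:102780629-102780778, minus strand: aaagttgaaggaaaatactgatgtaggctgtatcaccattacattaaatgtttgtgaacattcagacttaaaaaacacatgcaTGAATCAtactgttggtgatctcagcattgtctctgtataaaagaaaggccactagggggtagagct
MMP7 promoter, chr11:102530748-102530897, minus strand: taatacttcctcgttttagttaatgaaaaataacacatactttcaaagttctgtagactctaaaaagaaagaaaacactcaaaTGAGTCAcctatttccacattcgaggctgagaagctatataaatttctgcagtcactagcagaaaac
MMP14 promoter, chr14:22836435-22836584, plus strand: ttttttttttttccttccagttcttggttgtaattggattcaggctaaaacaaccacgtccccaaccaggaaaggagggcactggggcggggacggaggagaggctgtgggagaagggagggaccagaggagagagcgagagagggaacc
TIMP1 promoter, chrX:47582286-47582435, plus strand: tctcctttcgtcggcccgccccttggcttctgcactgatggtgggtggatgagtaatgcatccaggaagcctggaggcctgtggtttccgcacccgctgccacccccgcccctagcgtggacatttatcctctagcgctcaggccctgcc

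Of the 6 membrane-anchored MMPs, 3 could be tested in HuCCT1 and 2 were lower. MMP14 cuts collagen at the cell surface and activates proMMP2 in a complex with TIMP2. It had 77.8, 90.9 and 89.5 CPM in SNRPD2KO libraries, against 237, 215 and 212 CPM in Ctrl libraries, without overlap (log2 fold change -1.36 ± 0.07, 2.57-fold lower, adjusted p = 8.85e-08). MMP15, another transmembrane MMP, was lower by a smaller step, with 38.6, 34.5 and 34.5 CPM in SNRPD2KO against 42.2, 41.4 and 39.7 CPM in Ctrl (log2 fold change -0.20 ± 0.07, adjusted p = 0.035). MMP24 had 78.1, 71.9 and 71.4 CPM in SNRPD2KO against 65.9, 75.7 and 73.4 CPM in Ctrl, which overlapped (adjusted p = 0.62). Its opposite-strand neighbour MMP24OS was higher, at 76.1, 63.5 and 61.3 CPM in SNRPD2KO against 48.5, 52.0 and 45.9 CPM in Ctrl (log2 fold change 0.46 ± 0.09, adjusted p = 0.00098). Reads of the 2 genes may be mixed, since the strand setting of the counting is not known. Summed over the 6 genes the level was 195 to 198 CPM in SNRPD2KO libraries and 325 to 345 CPM in Ctrl libraries.

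Of 12 ADAMs with a protease site, 8 were tested in HuCCT1, 4 were higher and 1 was lower. ADAM9, a widely expressed membrane protease, had 466, 451 and 445 CPM in SNRPD2KO libraries, against 170.3, 185 and 164 CPM in Ctrl libraries. The groups lay apart by 2.62-fold (log2 fold change 1.39 ± 0.06, adjusted p = 2.2e-08). ADAM10, the sheddase that opens Notch cleavage, had 154, 156 and 150.4 CPM in SNRPD2KO against 107, 112 and 105 CPM in Ctrl (log2 fold change 0.51 ± 0.05, adjusted p = 1.0e-05). ADAM17, the TNF-alpha converting enzyme and the main sheddase of EGF receptor ligands, went the other way with 35.9, 45.3 and 42.5 CPM in SNRPD2KO against 49.3, 47.8 and 53.0 CPM in Ctrl (log2 fold change -0.28 ± 0.09, adjusted p = 0.018). Without Ctrl replicate 3 the ADAM17 call was lost (log2 fold change -0.24, adjusted p = 0.076). ADAM15 had 121, 110.4 and 114 CPM in SNRPD2KO against 89.5, 95.1 and 92.0 CPM in Ctrl (log2 fold change 0.32 ± 0.06, adjusted p = 0.00070), and ADAM8 had 47.2, 45.3 and 49.4 CPM against 40.9, 37.6 and 38.2 CPM in Ctrl (log2 fold change 0.28 ± 0.07, adjusted p = 0.0037). Summed over the 12 genes the level was 830 to 854 CPM in SNRPD2KO libraries and 483 to 503 CPM in Ctrl libraries. ADAM12, ADAM19 and ADAM28 did not pass the test (adjusted p from 0.12 to 0.78).

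All 3 tested ADAMs without a protease site passed the test in HuCCT1. ADAM11, a brain-type ADAM, had 21.4, 14.1 and 14.5 CPM in SNRPD2KO libraries against 3.68, 5.00 and 4.19 CPM in Ctrl libraries, 3.88-fold higher (log2 fold change 1.96 ± 0.19, adjusted p = 6.0e-06). ADAM22, a neuronal receptor of the secreted protein LGI1, had 8.03, 6.53 and 7.76 CPM in SNRPD2KO against 3.68, 3.11 and 3.74 CPM in Ctrl (log2 fold change 1.08 ± 0.17, adjusted p = 0.00020). ADAM32 was lower, with 0.573, 0.594 and 0.254 CPM in SNRPD2KO against 2.41, 1.40 and 1.42 CPM in Ctrl (log2 fold change -1.86 ± 0.40, adjusted p = 0.0021). ADAM32 passed the low-count filter here through the Ctrl libraries alone.

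Among 16 ADAMTS proteases, 7 were tested in HuCCT1, 4 were higher and 2 lower. ADAMTS14, a procollagen N-proteinase, had 2.18, 2.43 and 2.16 CPM in SNRPD2KO libraries against 0.254, 0.244 and 0.524 CPM in Ctrl libraries, which is 38, 41 and 34 counts against 4, 4 and 7. The groups did not overlap, and the fitted difference was 6.68-fold (log2 fold change 2.74 ± 0.35, adjusted p = 5.3e-05). ADAMTS16 had 12.7, 13.7 and 13.2 CPM in SNRPD2KO against 6.54, 7.13 and 8.15 CPM in Ctrl (log2 fold change 0.86 ± 0.12, adjusted p = 0.00010). ADAMTS8 was higher at low counts, ADAMTS12 was higher by a log2 fold change of 0.13, and ADAMTS15 (log2 fold change -0.67) and ADAMTS6 (log2 fold change -0.49) were lower. ADAMTS14 and ADAMTS8 passed the low-count filter through the SNRPD2KO libraries alone, so a call as higher was favoured in advance. ADAMTS12, the most abundant of the 16 in HuCCT1, had 155, 151 and 149.9 CPM in SNRPD2KO against 141, 141 and 135 CPM in Ctrl. Of 5 ADAMTS-like proteins, which have no protease domain and bind the matrix, ADAMTSL1 and ADAMTSL5 were higher and ADAMTSL4 lower, by log2 fold changes of 0.74, 0.53 and -0.81.

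The 2 abundant inhibitors moved in opposite directions in HuCCT1. TIMP1, a secreted inhibitor of most MMPs, had 136, 116 and 123 CPM in SNRPD2KO libraries, against 219.8, 236 and 227 CPM in Ctrl libraries (log2 fold change -0.86 ± 0.07, 1.82-fold lower, adjusted p = 9.2e-07). TIMP2, which also takes part in proMMP2 activation by MMP14, had 606, 533 and 526 CPM in SNRPD2KO, against 454, 463 and 458 CPM in Ctrl (log2 fold change 0.28 ± 0.06, adjusted p = 0.00215). Per kilobase of exon the ratio of TIMP2 to TIMP1 was 1.22, 1.26 and 1.17 in SNRPD2KO libraries and 0.565, 0.537 and 0.552 in Ctrl libraries. By this measure the order of the inhibitors differed between the groups, while in CPM TIMP2 stood above TIMP1 in both groups. TIMP4 had 2.75, 2.43 and 3.75 CPM in SNRPD2KO against 4.07, 4.26 and 3.89 CPM in Ctrl and did not pass the test (adjusted p = 0.090), although without SNRPD2KO replicate 3 it did (log2 fold change -0.64, adjusted p = 0.033). TIMP3, the inhibitor that binds the matrix, had 0 counts in all 3 SNRPD2KO libraries, which allows up to 0.172 to 0.191 CPM, and 1, 0 and 0 counts in Ctrl.

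Markers of other cell types were low in HuCCT1, and some moved with the groups. The leukocyte markers, of which 6 of 8 are in the HuCCT1 table and 2 averaged at least 1 CPM, summed to 3.33 to 3.81 CPM in SNRPD2KO libraries and 6.58 to 8.04 CPM in Ctrl. CD14 and CSF1R passed the test as lower, PTPRC had no count in Ctrl, and CD68 and AIF1 were not analysed in this line. The 9 fibroblast markers summed to 20.7 to 22.3 CPM in SNRPD2KO and 11.3 to 13.2 CPM in Ctrl, nearly all of it COL1A1 and LUM, both higher. The 6 endothelial markers stayed under 1 CPM in sum in both groups. The part of these genes in the results above was not tested.

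In HEK293T both knockout groups had less RNA than Ctrl of ADAMTSL4, a matrix protein that binds fibrillin microfibrils, of ADAM20 and ADAM32, and of the inhibitors TIMP1 and TIMP2. Both had more RNA of ADAM15, of TIMP3 and of ADAMTS1. ADAMTSL4, ADAM20 and ADAM32 passed the low-count filter through the Ctrl libraries alone, so a call as lower was favoured in advance. In SNRPD2KO against Ctrl 36 members were tested and 19 passed, 8 higher and 11 lower (52.8%), beside 53.3% of all 15882 genes, of which 26.9% were higher and 26.4% lower. In PUS7KO against Ctrl 17 of the same 36 passed, 8 higher and 9 lower (47.2%), beside 49.4% of all genes, of which 25.6% were higher and 23.8% lower. Both shares are near the background. Median log2 fold changes of the members were -0.03 in SNRPD2KO and 0.07 in PUS7KO, against 0.02 and 0.01 over all genes. Both comparisons share the Ctrl libraries, so their values are given side by side and not as independent support. The PUS7KO count fell to 9 without PUS7KO replicate 1, and to 10 without Ctrl replicate 1 or Ctrl replicate 2.

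**Figure D2:**
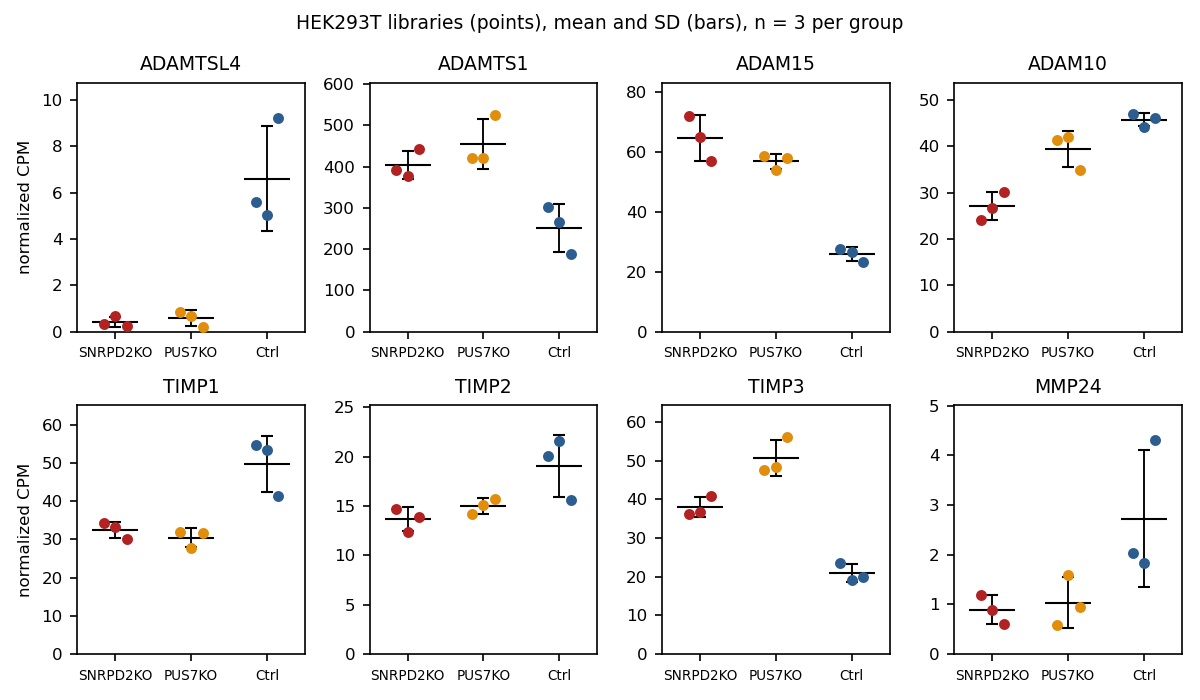
Normalized CPM (vertical axis, from 0) of 8 members in the 3 SNRPD2KO, 3 PUS7KO and 3 Ctrl libraries of HEK293T; points are libraries, the long bar is the mean and the whiskers the SD. ADAMTSL4 and TIMP1 were lower, and ADAMTS1, ADAM15 and TIMP3 higher, in every knockout library than in any Ctrl library, while ADAM10 was lowest in SNRPD2KO.

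ADAMTSL4 showed the largest fold change of the members tested in both HEK293T comparisons. It had 0.322, 0.660 and 0.256 CPM in SNRPD2KO libraries and 0.860, 0.668 and 0.208 CPM in PUS7KO libraries, against 5.57, 5.02 and 9.21 CPM in Ctrl libraries. In counts these were 3, 6 and 3, then 9, 8 and 2, against 52, 44 and 81 in Ctrl. The log2 fold changes were -4.0 ± 0.43 in SNRPD2KO (adjusted p = 1.1e-06) and -3.46 ± 0.40 in PUS7KO (adjusted p = 2.9e-06). ADAMTSL4 lies at chr1:150549369-150560937 on the plus strand and overlaps MCL1 on the minus strand, which had 1583, 1621 and 1574 counts in Ctrl and was lower by log2 fold changes of -0.35 in SNRPD2KO and -0.40 in PUS7KO. Its promoter is shown as that of the member with the largest change in HEK293T, and no TGANTCA stands in it.
ADAMTSL4 promoter, chr1:150549258-150549407, plus strand: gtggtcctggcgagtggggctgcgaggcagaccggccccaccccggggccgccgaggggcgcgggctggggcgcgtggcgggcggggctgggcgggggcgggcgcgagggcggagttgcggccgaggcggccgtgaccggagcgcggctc

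Of the ADAMs with a protease site, 8 were tested in HEK293T. In SNRPD2KO 2 were higher and 5 lower, and in PUS7KO 2 were higher and 3 lower. ADAM15 had 72.2, 65.1 and 57.1 CPM in SNRPD2KO and 58.7, 54.1 and 58.0 CPM in PUS7KO, against 27.8, 26.7 and 23.2 CPM in Ctrl. All 6 knockout libraries stood above all Ctrl libraries, by a log2 fold change of 1.32 ± 0.11 in SNRPD2KO (adjusted p = 4.5e-08) and 1.14 ± 0.11 in PUS7KO (adjusted p = 3.1e-07). ADAM10 had 24.1, 26.7 and 30.2 CPM in SNRPD2KO and 41.3, 42.0 and 35.0 CPM in PUS7KO, against 46.8, 44.2 and 46.1 CPM in Ctrl. It passed the test in SNRPD2KO (log2 fold change -0.75 ± 0.11, adjusted p = 1.7e-05) and did not in PUS7KO (log2 fold change -0.21 ± 0.10, adjusted p = 0.098). With a GC-content trend removed, the ADAM10 value in SNRPD2KO was -0.31 (adjusted p = 0.0070). ADAM9 had 16.1, 16.4 and 22.7 CPM in SNRPD2KO (log2 fold change -0.64 ± 0.14, adjusted p = 0.0014) and 21.4, 29.2 and 22.9 CPM in PUS7KO (adjusted p = 0.19), against 27.3, 29.8 and 29.2 CPM in Ctrl.

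ADAM17 had 34.5, 33.7 and 35.1 CPM in SNRPD2KO and 36.8, 38.7 and 36.5 CPM in PUS7KO, against 38.5, 42.4 and 45.0 CPM in Ctrl. Its step in SNRPD2KO was small (log2 fold change -0.28 ± 0.09, adjusted p = 0.015). The call was lost without Ctrl replicate 2 (log2 fold change -0.27), Ctrl replicate 3 (-0.22), SNRPD2KO replicate 1 (-0.27) or SNRPD2KO replicate 2 (-0.25), and with a GC-content trend removed the value turned to 0.15 (adjusted p = 0.15). Log2 fold changes of all genes followed GC content in HEK293T, with Spearman's rho across genes of 0.36 in SNRPD2KO and 0.18 in PUS7KO, against -0.02 in HuCCT1. This rho was 0.49 in HEK293T SNRPD2KO against PUS7KO, and -0.24 for the SNRPD2KO response in HuCCT1 minus that in HEK293T. ADAM20, a testis-type ADAM, had 0, 3 and 2 counts in SNRPD2KO and 1, 0 and 5 in PUS7KO, against 10, 12 and 20 in Ctrl, with log2 fold changes of -3.14 ± 0.74 (adjusted p = 0.0019) and -2.97 ± 0.71 (adjusted p = 0.0025). ADAM12, a protease of muscle and placenta, had 1.39, 1.76 and 1.19 CPM in SNRPD2KO (log2 fold change -1.32 ± 0.31, adjusted p = 0.0017) and 1.91, 2.00 and 2.39 CPM in PUS7KO (-0.78 ± 0.29, adjusted p = 0.035), against 4.61, 3.65 and 2.50 CPM in Ctrl. ADAM19 was higher in both groups, and ADAM21 was lower in PUS7KO alone of the 2 tests (log2 fold change -1.03 in PUS7KO and -0.82 in SNRPD2KO, the second at an adjusted p of 0.060).

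Among ADAMs without a protease site, ADAM32 had 4, 3 and 2 counts in SNRPD2KO and 4, 2 and 2 in PUS7KO, against 16, 10 and 15 in Ctrl. It was lower in both (log2 fold change -2.29 ± 0.49, adjusted p = 0.00084, and -2.55 ± 0.50, adjusted p = 0.00049). ADAM11 was higher in both (log2 fold change 0.71 in SNRPD2KO and 0.49 in PUS7KO), and ADAM22 and ADAM23 did not pass in either.

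The inhibitors tested in HEK293T, TIMP1, TIMP2 and TIMP3, all passed in both comparisons. TIMP1 had 34.2, 33.1 and 30.1 CPM in SNRPD2KO and 32.0, 27.7 and 31.7 CPM in PUS7KO, against 54.7, 53.3 and 41.3 CPM in Ctrl. It was lower by log2 fold changes of -0.62 ± 0.11 (adjusted p = 0.00023) and -0.71 ± 0.11 (adjusted p = 7.9e-05). TIMP3, which inhibits ADAM17 and several ADAMTS proteases besides MMPs, had 36.3, 36.7 and 41.0 CPM in SNRPD2KO and 47.7, 48.4 and 56.0 CPM in PUS7KO, against 23.6, 19.1 and 20.0 CPM in Ctrl. It was higher without overlap, by log2 fold changes of 0.86 ± 0.11 (adjusted p = 6.65e-06) and 1.28 ± 0.11 (adjusted p = 1.3e-07). TIMP3 lies inside SYN3, a gene on the opposite strand with 208 counts over the 9 libraries against 3332 of TIMP3.

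TIMP2 had 14.7, 12.3 and 13.9 CPM in SNRPD2KO and 14.1, 15.1 and 15.7 CPM in PUS7KO, against 20.0, 21.6 and 15.6 CPM in Ctrl, where Ctrl replicate 3 lay among the PUS7KO libraries. The log2 fold change was -0.48 ± 0.14 in SNRPD2KO (adjusted p = 0.0071) and -0.35 ± 0.14 in PUS7KO (adjusted p = 0.042). Without Ctrl replicate 2 both calls were lost, with -0.38 in SNRPD2KO (adjusted p = 0.051) and -0.24 in PUS7KO (adjusted p = 0.20). The PUS7KO call was lost in 8 of the 9 fits that leave out 1 library, with log2 fold changes from -0.36 to -0.24. TIMP4 had at most 12 counts in any library and was not tested.

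Of 13 ADAMTS proteases tested in HEK293T, 3 passed in SNRPD2KO (2 higher and 1 lower) and 4 in PUS7KO (3 higher and 1 lower). ADAMTS1 had 392, 378 and 441 CPM in SNRPD2KO and 420.0, 421 and 525 CPM in PUS7KO, against 303, 265 and 188 CPM in Ctrl. Its log2 fold change was 0.68 ± 0.14 in SNRPD2KO (adjusted p = 0.00048) and 0.85 ± 0.14 in PUS7KO (adjusted p = 7.8e-05). ADAMTS16 had 5, 8 and 6 counts in SNRPD2KO and 12, 13 and 13 in PUS7KO, against 29, 32 and 10 in Ctrl, where replicate 3 stood below the PUS7KO libraries in counts. The SNRPD2KO log2 fold change was -2.04 ± 0.44 (adjusted p = 0.0010), and that of PUS7KO, -1.14 ± 0.40 (adjusted p = 0.025), was no longer past the threshold without Ctrl replicate 1 (-1.001), Ctrl replicate 2 (-0.83), PUS7KO replicate 1 (-1.10) or PUS7KO replicate 2 (-1.06). ADAMTS8 had 15, 5 and 21 counts in SNRPD2KO and 6, 11 and 11 in PUS7KO, against 6, 5 and 3 in Ctrl. ADAMTS8 passed in SNRPD2KO (log2 fold change 1.35 ± 0.51, adjusted p = 0.034), with overlapping groups, and not without Ctrl replicate 1 (1.53), 2 (1.42) or 3 (1.13) or SNRPD2KO replicate 1 (1.22) or 3 (1.06).

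ADAMTS18 had 24, 27 and 9 counts in PUS7KO against 10, 9 and 4 in Ctrl, and passed in PUS7KO (log2 fold change 1.10 ± 0.44, adjusted p = 0.049). The ADAMTS18 call was lost in 6 fits that leave out 1 library: Ctrl replicate 1 (1.30), 2 (1.26) or 3 (0.82), PUS7KO replicate 1 (0.94) or 2 (0.94), or SNRPD2KO replicate 2 (1.12). ADAMTS2, a procollagen N-proteinase, had 4.51, 5.06 and 5.38 CPM in SNRPD2KO (adjusted p = 0.055) and 6.59, 4.42 and 6.14 CPM in PUS7KO (log2 fold change 0.75 ± 0.23, adjusted p = 0.013), against 4.07, 2.63 and 3.41 CPM in Ctrl. The other 8 ADAMTS proteases tested passed in neither comparison.

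MMP RNA was scarce in HEK293T. MMP2 was the only secreted MMP tested, with 3.11, 4.40 and 5.89 CPM in SNRPD2KO and 3.82, 4.26 and 5.10 CPM in PUS7KO, against 5.90, 3.88 and 2.16 CPM in Ctrl, groups that overlapped (adjusted p = 0.66 and 0.75). Without Ctrl replicate 3 its log2 fold change was -0.11 in SNRPD2KO and -0.15 in PUS7KO, with the opposite sign of 0.17 and 0.13 over all libraries. MMP9 had at most 6 counts in any library. MMP1 had 0 counts in all 6 knockout libraries, which allows at most 0.250 to 0.330 CPM, and 8, 14 and 0 counts in Ctrl. MMP10 had 2, 1 and 3 counts in SNRPD2KO and 5, 4 and 4 in PUS7KO, against 35, 30 and 1 in Ctrl, so Ctrl replicate 3 stood with the knockout libraries. WTAPP1, which overlaps MMP1 and MMP10 on the opposite strand, had 7, 11 and 7 counts in SNRPD2KO and 12, 9 and 10 in PUS7KO, against 5, 3 and 3 in Ctrl.

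Of the membrane-anchored MMPs, MMP24 had 11, 8 and 7 counts in SNRPD2KO and 6, 19 and 9 in PUS7KO, against 19, 16 and 38 in Ctrl. It was lower in SNRPD2KO (log2 fold change -1.63 ± 0.45, adjusted p = 0.0054) and in PUS7KO (-1.36 ± 0.43, adjusted p = 0.014). Without Ctrl replicate 3 neither passed, at -1.13 (adjusted p = 0.058) and -0.87 (adjusted p = 0.14), and without PUS7KO replicate 1 the second did not (-1.06, adjusted p = 0.071). MMP24OS, on the other strand, was higher in both (log2 fold change 0.67 and 0.58). MMP15 was higher in SNRPD2KO with overlapping groups, at 11.7, 14.4 and 14.2 CPM in SNRPD2KO against 10.1, 11.99 and 7.16 CPM in Ctrl (log2 fold change 0.46 ± 0.17, adjusted p = 0.032). MMP16 and MMP25 passed in neither comparison. MMP14 had at most 11 counts in any library and was not tested.

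**Figure D3:**
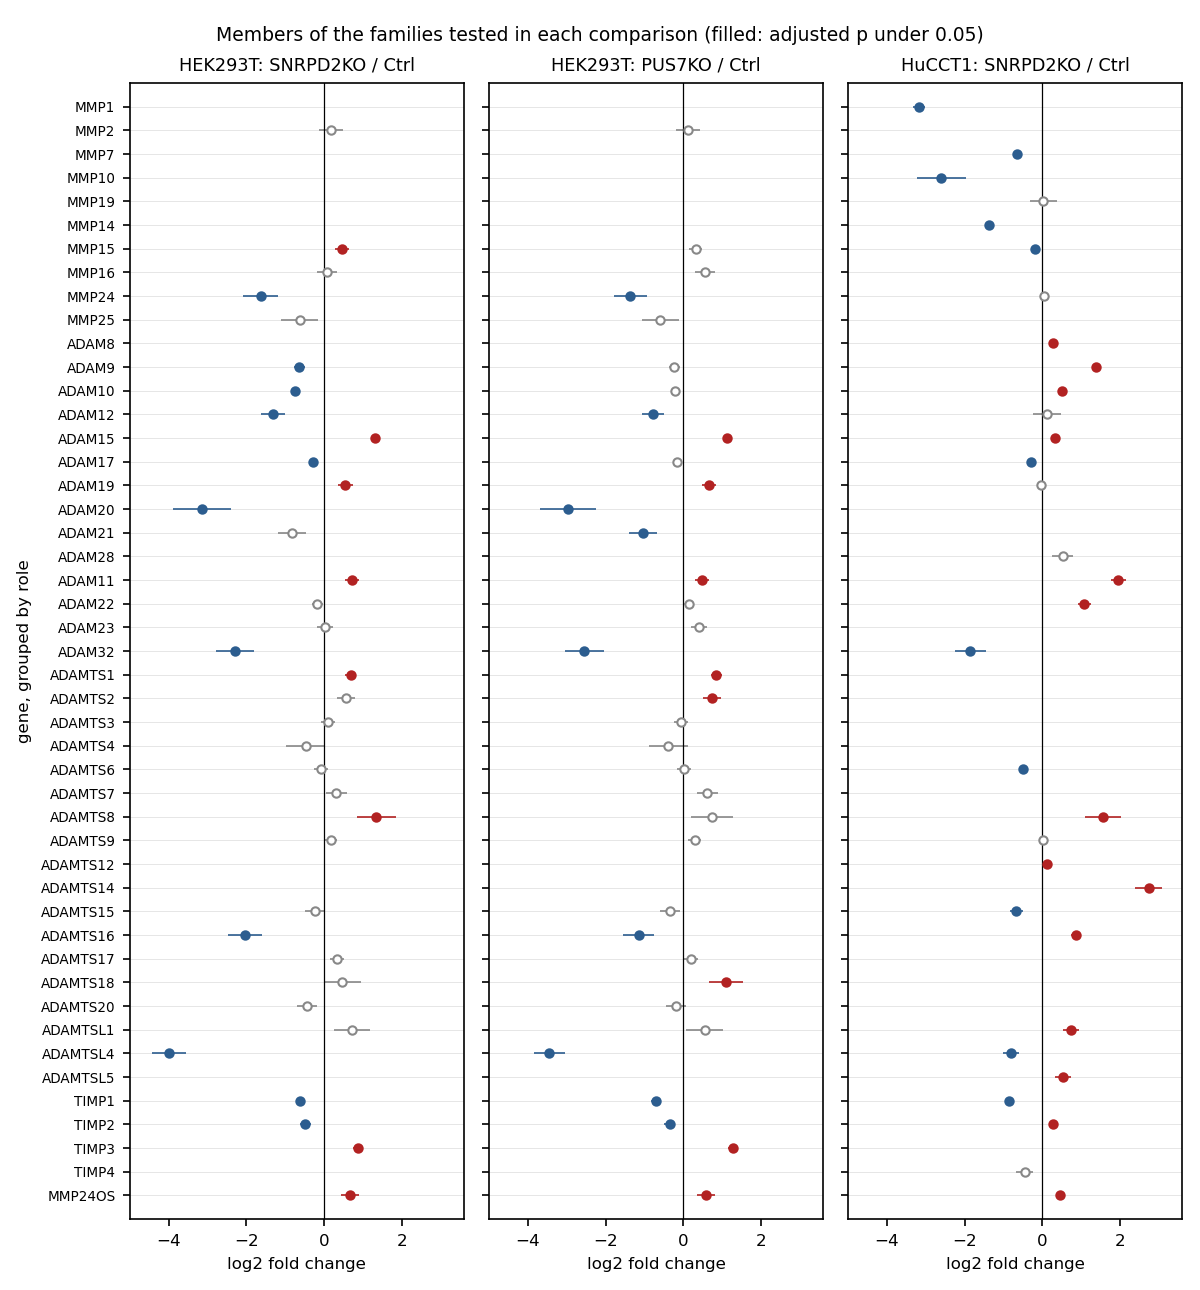
Log2 fold change (horizontal axis, bars are 1 SE) of every member tested, grouped by role down the page, for SNRPD2KO against Ctrl and PUS7KO against Ctrl in HEK293T and for SNRPD2KO against Ctrl in HuCCT1; filled points passed the test and a missing point was not tested. ADAMTSL4 lies farthest to the left in both HEK293T panels and MMP1 in the HuCCT1 panel.

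Markers of other cell types were low in HEK293T. The 8 leukocyte markers summed to 0.341 to 0.644 CPM in SNRPD2KO, 0.573 to 0.937 CPM in PUS7KO and 2.89 to 3.88 CPM in Ctrl, with CD68 and AIF1 at 0 counts in every library. The 6 endothelial markers summed to 0.644 to 1.76 CPM in SNRPD2KO, 1.14 to 1.503 CPM in PUS7KO and 2.28 to 3.30 CPM in Ctrl, and the 9 fibroblast markers to 9.90 to 14.1 CPM, 12.5 to 15.5 CPM and 7.72 to 8.52 CPM in the same groups. These sums, like the number of genes with a count, separate Ctrl from the knockout libraries as ADAMTSL4, ADAM20 and ADAM32 do, and their part in those results was not tested.

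Set against each other, the 2 HEK293T knockouts differed in 2 members. In SNRPD2KO against PUS7KO 2 of 36 members passed, both lower in SNRPD2KO (5.56%, beside 4.77% of all genes, of which 1.57% were higher and 3.2% lower). These were ADAM10 (log2 fold change -0.54 ± 0.11, adjusted p = 0.016) and TIMP3 (-0.41 ± 0.10, adjusted p = 0.034), with the values given above. The ADAM10 call was lost without PUS7KO replicate 2 (-0.49), SNRPD2KO replicate 1 (-0.46) or SNRPD2KO replicate 2 (-0.53), and with the GC-content trend removed (-0.29, adjusted p = 0.11). The TIMP3 call was lost without PUS7KO replicate 1 (-0.45), 2 (-0.44) or 3 (-0.33) or SNRPD2KO replicate 1 (-0.38) or 2 (-0.39).

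The response to the SNRPD2KO label was then compared between HuCCT1 and HEK293T in one fit over the 12 libraries, as the HuCCT1 log2 fold change minus that of HEK293T. Of 46 members tested 17 differed, 11 higher and 6 lower in HuCCT1 (37%), beside 40.7% of all 17617 genes tested, of which 19.8% were higher and 20.9% lower. ADAM9 differed by 1.98 ± 0.15 (adjusted p = 1.7e-08), with 1.39 in HuCCT1 and -0.64 in HEK293T. ADAM10 differed by 1.22 ± 0.11 (adjusted p = 2.0e-07), with 0.51 in HuCCT1 and -0.75 in HEK293T, and by 0.69 with the GC-content trend removed. By their calls in the main fits these membrane proteases were higher than Ctrl in HuCCT1 and lower than Ctrl in HEK293T. The same pattern of calls held for ADAMTS16 (difference 2.86 ± 0.44, adjusted p = 5.1e-05) and TIMP2 (0.71 ± 0.15, adjusted p = 0.00077), and the reverse for MMP15 (-0.71 ± 0.19, adjusted p = 0.0056). Over the alternatives the ADAM9 difference ranged from 1.55 to 2.16. Transcript GC content was 39.4% for ADAM9 and 66.0% for MMP15, against 38.3% for ADAM10. The HEK293T values of ADAM9 and MMP15 with the GC-content trend removed were not read out.

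ADAMTSL4 was lower in both lines, by log2 fold changes of -0.81 in HuCCT1 and -4.0 in HEK293T, which differed by 3.15 ± 0.48 (adjusted p = 4.8e-05). ADAM15 was higher in both, by 0.32 in HuCCT1 and 1.32 in HEK293T (difference -1.05 ± 0.13, adjusted p = 3.6e-06), and ADAM11 was higher in both, by 1.96 and 0.71 (difference 1.20 ± 0.28, adjusted p = 0.0024). TIMP1 was lower in both lines, by -0.86 in HuCCT1 and -0.62 in HEK293T, and the difference did not pass the test (-0.29 ± 0.14, adjusted p = 0.10), although with no low-count filter it did (-0.39, adjusted p = 0.014). In SNRPD2KO against Ctrl 57.2% of all genes passed in HuCCT1 and 53.3% in HEK293T, and the share passing in both was not counted. Of 21 members tested in both lines, 13 passed in both, 8 in the same direction and 5 in opposite ones. The 8 were ADAM11, ADAM15, ADAMTS8 and MMP24OS, higher, and ADAM17, ADAM32, ADAMTSL4 and TIMP1, lower. ADAM17 was not lower in HEK293T with the GC-content trend removed, and its difference between the lines then passed the test (-0.55, adjusted p = 0.0021).

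**Figure D4:**
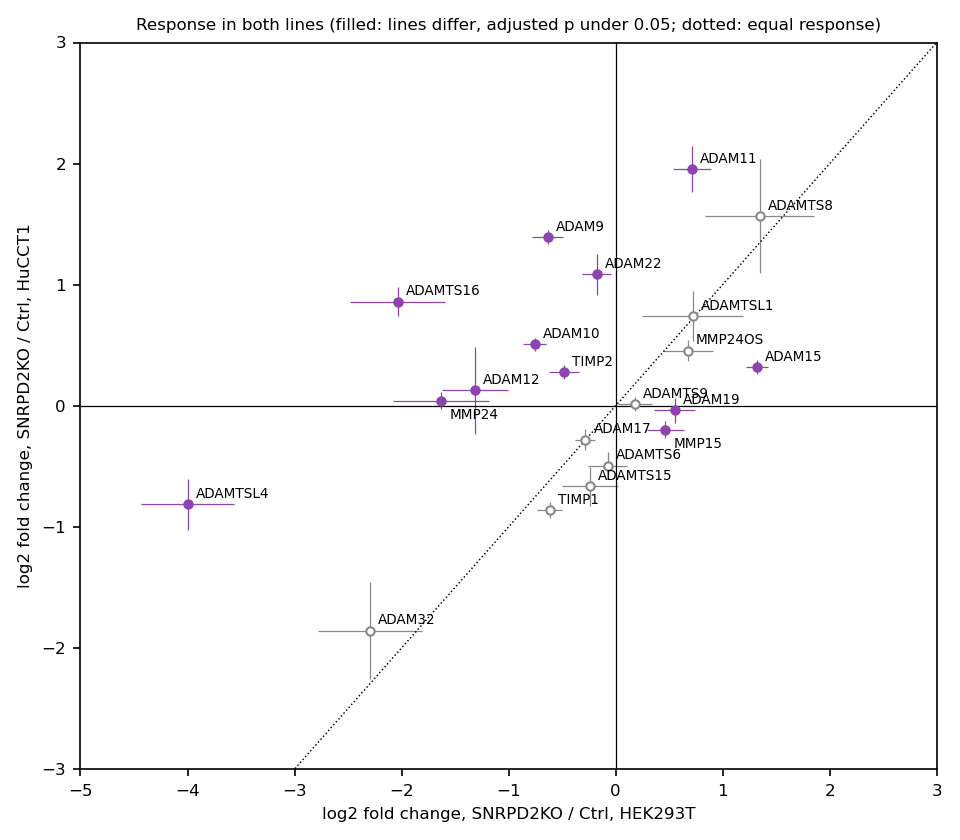
Log2 fold change of SNRPD2KO against Ctrl in HuCCT1 (vertical axis) and in HEK293T (horizontal axis) for the 21 members tested in both lines, with bars of 1 SE; filled points differ between the lines at an adjusted p under 0.05 and the dotted line marks equal change. ADAM9, ADAM10, ADAMTS16 and TIMP2 lie at the upper left, and ADAMTSL4 farthest to the left.

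**Figure D5:**
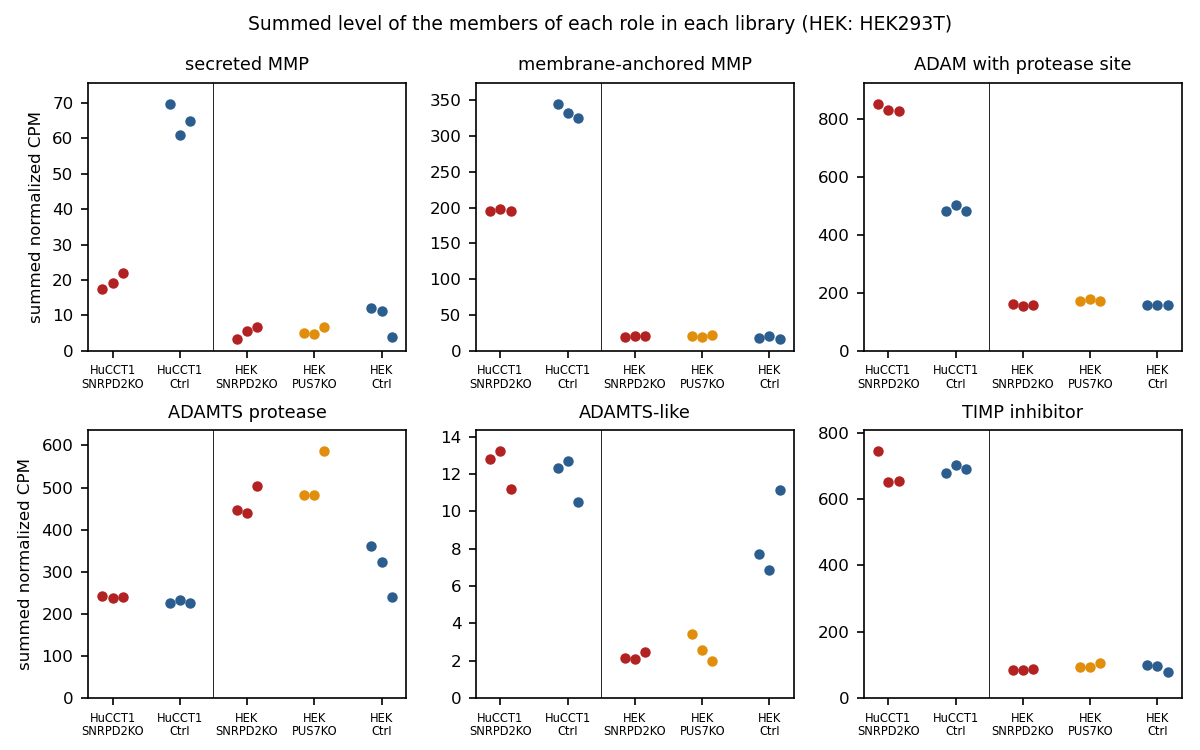
Summed normalized CPM (vertical axis, from 0, own scale in each panel) of the members of 6 roles in each library of the 5 groups; each point is a library. In HuCCT1 the sums of secreted and membrane-anchored MMPs are lower, and that of ADAMs with a protease site higher, in SNRPD2KO than in Ctrl. Single genes weigh heavily in these sums: MMP14 averaged 86.0 CPM in SNRPD2KO and 221 CPM in Ctrl, and ADAM9 454 and 173 CPM. MMP24 did not pass the test there, and ADAM17 was lower. In HEK293T the sum of ADAMs with a protease site ranged from 155 to 161 CPM in SNRPD2KO, 170.3 to 178 CPM in PUS7KO and 157 to 159 CPM in Ctrl.

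Genes that act with these proteases were read from lists of activators, partners and substrates. Of 15 activators, shields and cofactors of MMPs, 13 were tested in HuCCT1, 3 were higher and 8 lower (median log2 fold change -0.29, against 0.00 over all genes). Beside the counts of this and the next lists stand the shares of all genes called, 57.2% in HuCCT1 (28.8% higher and 28.4% lower), and in HEK293T 53.3% in SNRPD2KO and 49.4% in PUS7KO. LCN2, lipocalin-2, which binds MMP9, had 18.1 to 18.9 CPM in SNRPD2KO against 99.9 to 119 CPM in Ctrl (log2 fold change -2.52, adjusted p = 3.6e-09). PLAUR, the urokinase receptor, had 72.0 to 78.2 CPM against 259 to 269 CPM in Ctrl (-1.81, adjusted p = 3.1e-09), and urokinase itself, PLAU, was also lower (-0.64). PCSK6, a furin-like convertase (0.82), and PLAT, tissue plasminogen activator (0.69), were higher. In HEK293T 12 were tested, with 2 higher and 1 lower in SNRPD2KO (median -0.01) and 3 higher and 2 lower in PUS7KO (median -0.12). PCSK6 and PLAT were higher there too, by 0.83 and 0.64 in SNRPD2KO and 0.83 and 1.07 in PUS7KO, and CD44 was lower in SNRPD2KO (-1.97). The CD44 groups overlapped, with 0.427 to 1.76 CPM in SNRPD2KO against 1.36 to 5.82 CPM in Ctrl.

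Of 13 partners of ADAM10, ADAM17 and the receptor-type ADAMs, 8 were tested in HuCCT1, 5 were higher and the others did not pass (median 0.35). The share called was near the 57.2% of all genes called in either direction. All 5 calls were higher, beside 28.8% of all genes, and the list as a set was not tested. RHBDF2, the iRhom that carries ADAM17 to the cell surface, had 39.3 to 50.5 CPM in SNRPD2KO against 14.8 to 19.7 CPM in Ctrl (1.39, adjusted p = 2.5e-06), and TSPAN10 (1.18) and RHBDF1 (0.91) were higher as well. In HEK293T 11 were tested, with 6 higher and 1 lower in SNRPD2KO (median 0.39) and 6 higher and 2 lower in PUS7KO (median 0.46). RHBDF2 (1.12 and 0.74), TSPAN10 (1.23 and 0.92) and LGI1, the ligand of ADAM22 (2.30 and 2.66), were higher in both, and RHBDF1 was lower in both (-0.54 and -0.59). LGI1 had 0.550 to 1.39 CPM in SNRPD2KO and 0.937 to 1.42 CPM in PUS7KO, against 0.114 to 0.227 CPM in Ctrl. Its Ctrl level was under the floor of 3 counts. LGI1 passed the low-count filter through the knockout libraries alone, so a call as higher was favoured in advance.

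Of 30 known substrates of ADAM10 and ADAM17, 25 were tested in HuCCT1, 9 were higher and 12 lower (median -0.20). The called genes with the largest changes, all lower, were CXCL16, a membrane-bound chemokine (-1.29), JAG1, a Notch ligand (-1.18), the syndecan SDC4 (-0.92) and HBEGF, a ligand of the EGF receptor, with 78.9 to 85.7 CPM in SNRPD2KO against 141 to 161 CPM in Ctrl (-0.88, adjusted p = 6.6e-07). In HEK293T 22 were tested, with 3 higher and 6 lower in SNRPD2KO (median -0.16), a smaller share than that of all genes, and 7 higher and 6 lower in PUS7KO (median -0.04), and HBEGF was lower in both (-1.18 and -1.12). Of 21 ADAMTS substrates and fibrillin-matrix genes, 13 were tested in HuCCT1, 2 were higher and 6 lower (median -0.27). HSPG2, perlecan (1.30), and LTBP2 (1.29) were higher, and FN1, fibronectin (-0.75), and LTBP1 (-0.66) lower. In HEK293T 10 were tested, with 6 higher and 1 lower in SNRPD2KO (median 0.36) and 5 higher and 1 lower in PUS7KO (median 0.47). There HSPG2 (1.05 and 1.10), FN1 (0.52 and 0.89) and LTBP1 (0.66 and 0.70) were higher in both.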

How the data were processed

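RNA was measured in 15 libraries, made with a stranded total RNA kit after removal of ribosomal RNA, per the labels' protocols. The authors deposited raw counts per gene, 1 table for each cell line; cutadapt 4.2, HISAT2 2.2.1, RSEM and genome build hg38 are named in the submitters' processing notes, while the annotation release and the strand setting are not given in the sources used here. The 2 tables were normalized apart for the levels and for the tests within a line. The comparison between lines used the genes in both tables and normalized its 12 libraries together.

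Counts were tested with edgeR 4.0.16 (R 4.3.3, TMM factors, quasi-likelihood test, Benjamini-Hochberg adjustment over all genes tested, threshold 0.05), after filterByExpr with a minimum count of 10 and a minimum total of 15. All 3 HEK293T groups shared 1 fit. A floor of 3 counts per library was taken as the limit that a count of 0 allows, and it covers counting error only. Alternatives were RLE and upper quartile factors, no filter, a filter of 1 CPM in 3 libraries, DESeq2 1.42.0, limma 3.58.1 voom, a test against a 1.5-fold change, an adjusted p under 0.01, the replicate number as a block, fits of only 2 groups and leaving out each library; removal of a GC-content trend was added after seeing the data. Members and gene lists were chosen with earlier results of these data known. Members described library by library were the 8 largest calls per comparison with a mean of at least 1 CPM, all TIMPs, ADAM10, ADAM17, MMP2, MMP9 and MMP14, and the 5 with the highest level per length in each Ctrl group. MMP1, MMP10 and WTAPP1 in HEK293T and several smaller calls were described in addition, after their values were seen. On simulated counts the HEK293T fit of SNRPD2KO against Ctrl recovered 83.1% of 65 genes changed 2-fold, among 15370 genes. The HuCCT1 fit recovered 95.3% of 64 among 14736, and the comparison between lines 67.2% of 61 among 16542. The simulation changed few genes and gave every gene the same spread beyond counting error. It therefore does not give the power for the members here, many of which have few counts. Promoter sequences are from RefSeq (GRCh38.p14).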

Additional observations from a re-analysis of the deposited data

Results flagged for a closer look

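For 17 members the response to the SNRPD2KO label differed between the lines by a test of the difference itself (edgeR quasi-likelihood test, adjusted over all genes); values are the HuCCT1 minus the HEK293T log2 fold change. The labels mark these libraries as knockouts, although their SNRPD2 RNA lay above that of Ctrl. Opposite calls in the 2 lines were made for ADAM9 (1.98, adjusted p = 1.7e-08), ADAM10 (1.22, adjusted p = 2.0e-07), ADAMTS16 (2.86, adjusted p = 5.1e-05), TIMP2 (0.71, adjusted p = 0.00077) and MMP15 (-0.71, adjusted p = 0.0056). For ADAM9 and MMP15 the HEK293T values with the GC-content trend removed were not read out. The same direction in both lines with unequal size was seen for ADAMTSL4 (3.15, adjusted p = 4.8e-05), ADAM15 (-1.05, adjusted p = 3.6e-06) and ADAM11 (1.20, adjusted p = 0.0024). A call in 1 line only was made for ADAM22 (1.22, adjusted p = 0.00019), MMP24 (1.64, adjusted p = 0.0014), ADAM12 (1.40, adjusted p = 0.034) and ADAM19 (-0.63, adjusted p = 0.026).

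The other 5 passed the filter within 1 line alone and rest on few counts in the other. ADAM8 differed by 1.51 (adjusted p = 0.012), and no longer passed without HEK293T Ctrl replicate 3 (1.21) or SNRPD2KO replicate 2 (1.13). MMP14 differed by -1.37 (adjusted p = 0.0077), and without HEK293T SNRPD2KO replicate 3 by -1.20 (adjusted p = 0.058). ADAMTSL5 differed by 1.42 (adjusted p = 0.021), and did not pass without HEK293T Ctrl replicate 1 (1.083) or SNRPD2KO replicate 2 (1.24). ADAM21 differed by -1.91 (adjusted p = 0.027), and did not pass without HEK293T Ctrl replicate 3 (-1.81) or SNRPD2KO replicate 1 (-1.59), or HuCCT1 Ctrl replicate 2 (-1.64) or SNRPD2KO replicate 1 (-1.59) or 3 (-1.95). ADAMTS3 differed by -3.49 (adjusted p = 0.033) with 0 counts in HuCCT1 SNRPD2KO libraries and 1, 1 and 2 in Ctrl, so the fitted size is no bound, and it did not pass when any 1 of the 3 HuCCT1 SNRPD2KO libraries was left out (-3.46 to -3.47), or without Ctrl replicate 3 (-3.06).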

How the results depend on the processing

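Of 1203 refits of 61 member values, 1080 kept direction and side of the threshold, 106 lost the call, 3 gained it (ADAM17 and TIMP1 between lines and TIMP4 in HuCCT1) and 14 changed sign. A test against a 1.5-fold change left 8 of 19 calls in SNRPD2KO and 5 of 17 in PUS7KO against Ctrl in HEK293T, 10 of 25 in HuCCT1, 8 of 17 between lines and 0 of 2 between the knockouts (edgeR; 0 at an unadjusted p under 0.05 there). An adjusted p under 0.01 left 8 in PUS7KO, 11 between lines and 0 between the knockouts, where 4 had an unadjusted p under 0.05 and DESeq2 and limma voom called 2 each. Shares of all genes passing were counted only in the main fits. Whether members lost calls more often than other genes was not tested. With the GC trend removed 15 were called in HEK293T SNRPD2KO (14 of the main calls kept) and 17 in PUS7KO. The same setting called 23 in HuCCT1, 19 between lines and 1 between the knockouts. Leaving out 1 library gave 9 to 18 calls in PUS7KO, 14 to 21 in SNRPD2KO, 0 to 3 between the knockouts (0 without PUS7KO replicate 2 or SNRPD2KO replicate 1 or 2, 1 without PUS7KO replicate 1 or 3), 22 to 26 in HuCCT1 and 14 to 17 between lines. Replicate numbers did not pair the libraries (correlations of deviations from -0.14 to 0.055); the fit with the replicate block called 15, 18, 2, 23 and 17 in PUS7KO, SNRPD2KO, between the knockouts, HuCCT1 and between lines, and lost ADAMTS18 and TIMP2 in PUS7KO, ADAMTS8 in SNRPD2KO and 2 HuCCT1 calls. Sign changes with the GC trend removed were ADAM17 in PUS7KO (0.017), in SNRPD2KO (0.15) and between the knockouts (0.13), MMP2 in SNRPD2KO (-0.0020) and between the knockouts (-0.049), and TIMP1 between the knockouts (-0.016). Those with a library left out were ADAM17 between lines (-0.12 to 0.047), MMP2 in PUS7KO (-0.15 to 0.53), in SNRPD2KO (-0.11 to 0.57) and between the knockouts (-0.22 to 0.25), and TIMP4 between lines (-0.11 to 0.81). With no low-count filter ADAM17 in SNRPD2KO, TIMP2 in PUS7KO and ADAMTSL5 between lines lost their call, and 23 of 25 HuCCT1 calls were kept. The cause was not tested. Members with few counts, such as ADAM20, ADAM32 and MMP10, are limited by depth.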

Other observations

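Members under the low-count filter in HEK293T were ADAM8, ADAM28, ADAM29, ADAM30, ADAM33, ADAMTS5, ADAMTS12, ADAMTS14, ADAMTSL2, ADAMTSL3, ADAMTSL5, MMP1, MMP3, MMP7, MMP9, MMP10, MMP13, MMP14, MMP19, MMP20, MMP21, MMP23B and TIMP4. Those in HuCCT1 were ADAM20, ADAM21, ADAM23, ADAM29, ADAM30, ADAM33, ADAMTS1, ADAMTS2, ADAMTS3, ADAMTS4, ADAMTS5, ADAMTS7, ADAMTS17, ADAMTS18, ADAMTS20, ADAMTSL2, ADAMTSL3, MMP2, MMP3, MMP9, MMP13, MMP16, MMP20, MMP21, MMP23B, MMP25 and TIMP3.

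ADAM20 and ADAM21, testis-type ADAMs, also had few counts in HuCCT1, with 2, 0 and 4 counts of ADAM20 in SNRPD2KO against 12, 10 and 5 in Ctrl, and 1, 3 and 2 counts of ADAM21 in SNRPD2KO against 12, 18 and 8 in Ctrl. The groups did not overlap for either gene, and neither was tested in HuCCT1. In HEK293T, MMP3 had 0, 0 and 1 counts in SNRPD2KO and 0, 0 and 3 in PUS7KO, against 3, 8 and 0 in Ctrl, so Ctrl replicate 3 stood with the knockout libraries as it did for MMP1 and MMP10. MMP13, of the same cluster, had 0, 0 and 1 counts in SNRPD2KO and 3, 1 and 5 in PUS7KO, against 8, 6 and 7 in Ctrl.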
